A study of Mus musculus with 52 samples.

Results

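The 40 genes described here are those of heat shock proteins and their partner chaperones, with 3 genes that the list groups as regulators. These are the factor genes Hsf1 and Hsf2, and Dedd2. They were chosen by symbol, and all 40 were present in both count tables, among 13566 genes measured in haematopoietic stem cells (HSC) and 15168 in bone marrow stroma. Mice were injected with a prostaglandin E receptor agonist or vehicle 30 min before total-body irradiation with 853 cGy, and marrow was taken 1 h after irradiation. The 5 irradiated HSC groups received vehicle, sulprostone (an agonist of the receptor EP3), rivenprost (an agonist of EP4), both agonists together, or misoprostol, a prostaglandin E1 analogue. Stroma came from the same 5 irradiated treatments, from irradiated mice given dmPGE2 (a stable analogue of prostaglandin E2, written PGE in the labels), and from mice that were not irradiated and had received vehicle or dmPGE2. The series' design text names only vehicle for non-irradiated mice, and the labels of the samples were followed. In all there were 13 groups of 4 mice (2 of each sex), and every mouse gave 1 library, so the spread below is between animals. Neither strain nor age nor dose appears in the labels, and compounds are therefore compared at unknown relative doses. HSC were sorted by their SLAM surface profile within the lineage-negative Sca-1+ Kit+ cells, while stroma was enriched with magnets for cells lacking CD45 and Ter119.

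Heat shock proteins hold unfolded or partly folded proteins and help them to fold. HSP70 proteins bind short exposed stretches of a client in a cycle driven by ATP, which J-domain proteins (DNAJ) start and nucleotide exchange factors of the HSP110 and BAG families end, and HSP90 with its co-chaperones finishes selected clients such as kinases and steroid receptors. The transcription factor HSF1 drives the inducible genes by binding heat shock elements, repeats of a short unit, while the chaperones of the endoplasmic reticulum answer to the unfolded protein response through a separate element. Among the inducible genes, Hspa1a and Hspa1b encode nearly the same HSP70 protein and are known for large and rapid changes.

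The start regions printed here were chosen for holding a heat shock or stress element, and they include Hsph1, which edgeR with terms for group and sex called in no comparison. RefSeq promoter windows (GRCm38.p6, 250 bases before to 50 after a start, read on the gene's strand) were found for 33 of the 40 genes. A heat shock element of 3 units was searched as GAANNTTCNNGAA or TTCNNGAANNTTC, which covers both strands. It occurred in 5 of the 33 genes (15.2%), namely Hsph1, Chordc1, Dnajb6, Hspd1 and Hspe1, and in 0.662% of 27025 genes with a window. Hspd1 and Hspe1 lie head to head and share this stretch. The shorter form of 2 units (GAANNTTC or TTCNNGAA, which every match of 3 units contains) occurred in 14 of 33 genes (42.4%) against 17% of all. The endoplasmic reticulum stress element (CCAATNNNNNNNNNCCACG or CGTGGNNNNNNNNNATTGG) was in 3 of 33 (9.09%), Hspa5, Hsp90b1 and Dnajc3, against 0.137%. The full cAMP response element TGACGTCA was in 0 of 33, against 2.03%. The windows of Dnajb1 and Dnajb9, which were called, hold none of these elements and are not shown. Capitals mark the 2-unit element in Hspa1a (chr17:34972157-34972406, minus strand) and Hspa1b (chr17:34959239-34959488, minus strand), the 3-unit elements, partly overlapping in Chordc1, in Chordc1 (chr9:18292017-18292296, plus strand), Dnajb6 (chr5:29735648-29735897, plus strand) and Hsph1 (chr5:149636287-149636316, minus strand, only the 30 bases with the element), and the endoplasmic reticulum stress element in Hspa5 (chr2:34771840-34772089, plus strand).
Hspa1a: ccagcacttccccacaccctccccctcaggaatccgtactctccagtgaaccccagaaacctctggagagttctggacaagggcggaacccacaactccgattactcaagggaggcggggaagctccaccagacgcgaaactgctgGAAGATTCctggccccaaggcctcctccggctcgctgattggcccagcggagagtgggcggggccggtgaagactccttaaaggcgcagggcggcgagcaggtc
Hspa1b: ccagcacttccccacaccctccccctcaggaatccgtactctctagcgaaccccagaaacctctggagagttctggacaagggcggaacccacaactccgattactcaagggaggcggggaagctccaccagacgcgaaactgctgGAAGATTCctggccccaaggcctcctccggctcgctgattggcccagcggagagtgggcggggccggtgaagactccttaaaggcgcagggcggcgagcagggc
Chordc1: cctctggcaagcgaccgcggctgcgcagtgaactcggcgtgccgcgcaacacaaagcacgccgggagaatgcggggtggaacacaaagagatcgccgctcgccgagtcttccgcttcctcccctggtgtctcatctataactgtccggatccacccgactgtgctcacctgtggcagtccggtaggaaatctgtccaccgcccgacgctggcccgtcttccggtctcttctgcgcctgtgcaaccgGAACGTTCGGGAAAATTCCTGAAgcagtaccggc
Dnajb6: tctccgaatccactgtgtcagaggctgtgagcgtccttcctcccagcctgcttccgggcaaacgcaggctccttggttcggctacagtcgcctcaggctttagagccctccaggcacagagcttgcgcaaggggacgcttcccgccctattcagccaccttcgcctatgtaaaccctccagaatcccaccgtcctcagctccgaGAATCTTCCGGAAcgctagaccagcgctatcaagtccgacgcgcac
Hsph1: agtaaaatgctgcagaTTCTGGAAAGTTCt
Hspa5: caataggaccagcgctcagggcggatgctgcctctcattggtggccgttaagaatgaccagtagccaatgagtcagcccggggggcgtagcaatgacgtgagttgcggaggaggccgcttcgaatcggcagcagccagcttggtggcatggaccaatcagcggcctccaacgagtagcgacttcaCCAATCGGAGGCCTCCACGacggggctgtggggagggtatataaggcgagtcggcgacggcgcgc
The windows of Hspa1a and Hspa1b were identical at 296 of 300 bases. A match of letters is a description of the window and not a binding site shown here.

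Libraries held 27376014 to 49173110 counts in HSC and 38031184 to 73695537 in stroma. HSC libraries had all 10 listed HSC markers, summing to 1359 to 2865 CPM (counts scaled to library size with TMM factors), against 202 to 500 CPM in stroma. Stroma libraries had all 10 mesenchymal markers at 3824 to 20480 CPM in sum. The 10 osteoblast markers, all measured, summed to 27860 CPM in replicate 4 of non-irradiated vehicle and 18150 CPM in replicate 4 of non-irradiated dmPGE2, against at most 9908 CPM in the other 30 stroma libraries. Stroma also held granulocyte markers at 887 to 13000 CPM and erythroid markers at 2092 to 8499 CPM, 6 of 10 measured. In these bulk samples fewer cells of a type and less RNA per cell cannot be told apart. The HSC library of sulprostone replicate 1 stood apart in markers of several other cell types, first in granulocyte markers (9 of 10 measured). Granulocyte markers summed to 12940 CPM there, against at most 514.5 CPM in the other 19 HSC libraries. Erythroid markers summed to 5907 CPM against at most 605.3, and monocyte and macrophage markers to 2113 against at most 346.7. B cell markers (231.5 against at most 72.74 CPM) and mesenchymal markers (387.7 against at most 92.62 CPM) were also highest there. These lists were only partly measured in HSC. HSC markers were lowest there, at 1359 CPM. Values without this library stand beside most, not all, comparisons with sulprostone. Of 12 immediate early genes, listed as a sign of cell handling and also inducible by many signals, 11 were measured in HSC. Their sum was 2052 to 4058 CPM after vehicle and 3659 to 4254 CPM after sulprostone, but 4156 to 6595 after rivenprost, 5603 to 6981 after both agonists and 4226 to 6943 after misoprostol, 3 groups that did not overlap vehicle. Their part in the HSC results was not tested.

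The levels of the 40 genes spanned several orders of magnitude in each fraction. On the scale of CPM per kilobase of exon, Hspa8, the constitutive cytosolic HSP70, ranked first in HSC (1296 ± 342 over 20 libraries) and in stroma (1454 ± 254 over 32). Hsp90ab1, the constitutive HSP90, came next at 554 ± 99.9 in HSC and 1390 ± 231 in stroma, and in stroma these 2 levels lay within 1 SD of each other. Then followed Hspa5, the HSP70 of the endoplasmic reticulum, in HSC (343 ± 67.6) and Hsp90aa1, the inducible HSP90, in stroma (759.5 ± 129.2). The lowest levels in HSC belonged to the small heat shock proteins Cryab (0.432 ± 0.691, with 0 counts in 11 of 20 libraries) and Hspb1 (1.203 ± 1.442, 0 counts in 5), both of which prevent aggregation without ATP. In stroma the lowest were Hspb8 (2.98 ± 1.68) and the factor gene Hsf2 (3.85 ± 0.938). The factor gene Hsf1 stood at 27.4 ± 5.49 in HSC and 14.9 ± 2.07 in stroma. The tables were scaled separately, so values across the 2 fractions are set side by side without a test.

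**Figure D1:**
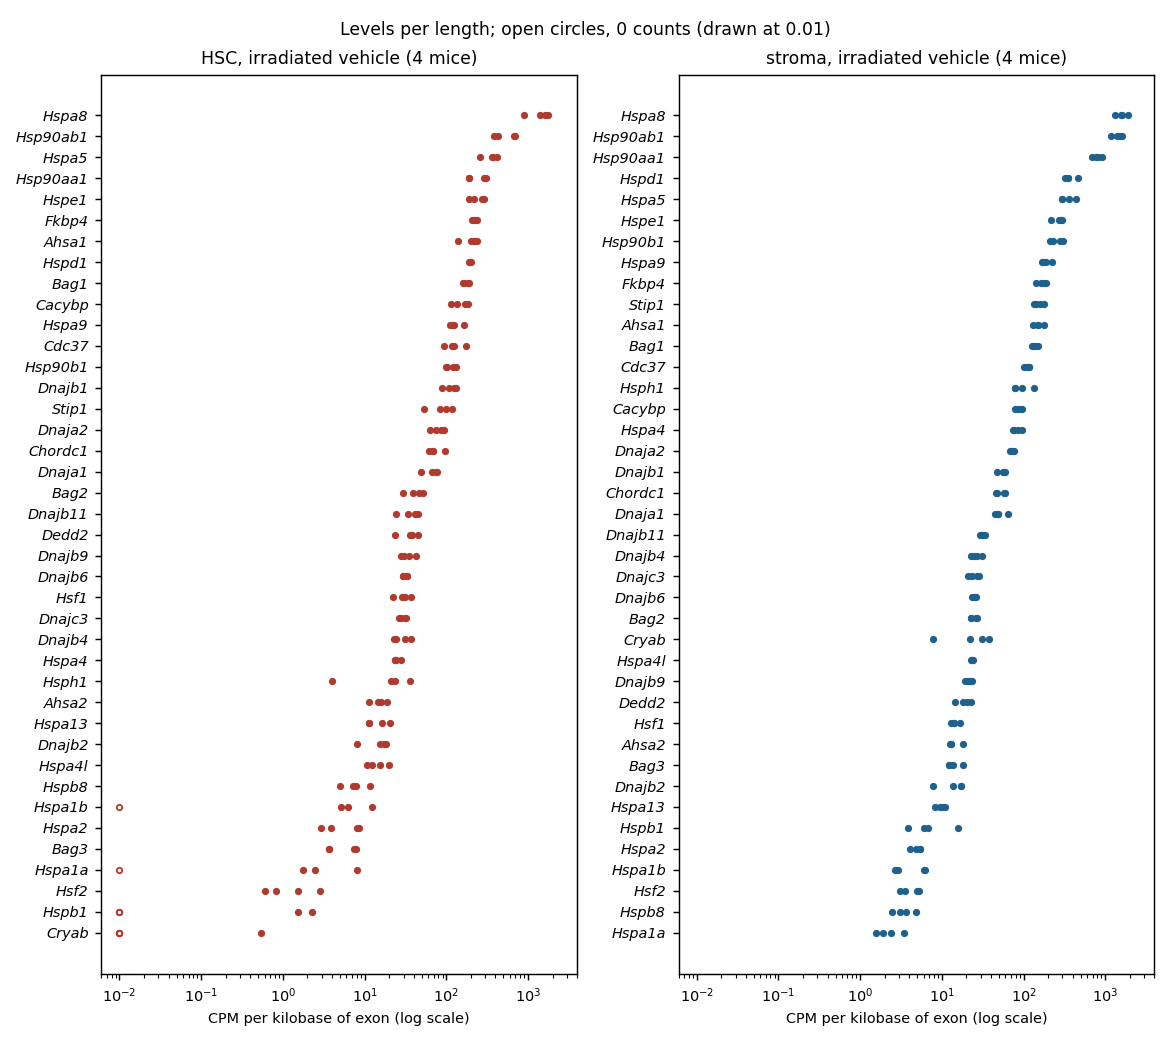
Level of each of the 40 genes in irradiated vehicle HSC (left) and stroma (right), in CPM per kilobase of exon on a log axis, 1 point per mouse (4 per panel), genes ordered by level; open circles are libraries with 0 counts. Hspa8 and Hsp90ab1 lead in both panels, and the inducible Hspa1a is near the bottom of both.

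On a log scale, mice of a group differed most in the inducible HSP70 genes, which were low in level. The within-group SD of log2 CPM had a median over the 40 genes of 0.32 in HSC and 0.25 in stroma. Hspa1b (3.23) and Hspa1a (2.51) were the highest in HSC, and Hspa1a (1.43) and Hspa1b (1.36) in stroma. An SD over 1 was found in 8 of 40 genes in HSC and 3 of 40 in stroma, the third in stroma being Cryab (1.11). In HSC the others were Cryab (2.38), Hspb1 (2.19), Hspa2 (1.37), Hspb8 (1.31), Hsf2 (1.19) and Bag3 (1.06). With Hspa1a and Hspa1b they held ranks 33 to 40 in level per length, the lowest of the list. The part of low level in this spread was not tested. The smallest were Hspd1, the mitochondrial chaperonin HSP60, at 0.11 in HSC and Dnajb6, a J-domain protein that prevents aggregation, at 0.10 in stroma.

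The first set of comparisons asked which of these genes each agonist changed in HSC of irradiated mice. Hspa1a (mm10 chromosome 17, 34969359 to 34972156, minus strand) was nearly absent after rivenprost. Its counts in the 4 vehicle libraries were 287, 0, 877 and 170, and in the rivenprost libraries 4, 0, 0 and 0. Sulprostone libraries held 1436, 299, 3447 and 281 counts, libraries of both agonists 544, 6, 29 and 1, and misoprostol libraries 52, 183, 466 and 267. Vehicle replicate 2, at 0, fell within the rivenprost range, so these groups overlapped, while the other 3 vehicle libraries and all sulprostone and misoprostol libraries lay above every rivenprost library. Pooled over mice, 4 counts after rivenprost compare with 1334 after vehicle, a ratio of 362 once divided by library totals (141.2 to 1332, a 95% interval for counting error only, with no spread between mice). The gene passed edgeR's quasi-likelihood test over all genes against vehicle (adjusted p = 0.0313), as 1 of 40 members, where 0.494% of all genes passed in either direction and 0.0958% lower. The fitted log2 fold change was -8.65 (SE 1.83), a value that depends on the prior count since 3 of 4 libraries were at 0.

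Hspa1b (chromosome 17, 34956429 to 34959238, minus strand) also varied widely between mice, and did not pass against vehicle in any group. It stood at 17.6, 0, 35.03 and 14.5 CPM after vehicle, at 0, 2.25, 0.411 and 1.904 after rivenprost, and at 141.6, 36.2, 250 and 30.3 after sulprostone. Rivenprost against vehicle gave -3.09 (SE 1.70, adjusted p = 0.896) by edgeR. Pooled over mice, Hspa1b had 187 counts after rivenprost and 2606 after vehicle. Divided by library totals this was a ratio of 15.1 (13.05 to 17.66, for counting error only), against 362 for Hspa1a. After both agonists Hspa1b was at 23.5, 0.496, 11.1 and 0 CPM, and after misoprostol at 0.175, 13.7, 11.7 and 5.13. Summed over Hspa1a and Hspa1b, the 4 sulprostone libraries ranged from 40.2 to 331.6 CPM, the vehicle libraries from 0 to 57.5 and the rivenprost libraries from 0.0810 to 2.25. In the 11 HSC libraries with both genes over 1 CPM, none from rivenprost, Hspa1b held 0.906 to 5.60 times the CPM of Hspa1a. Because the transcripts share 1350 windows of 100 bases (47.1% of those of Hspa1a and 49.9% of those of Hspa1b), reads may be split or lost between them. With their counts summed into 1 gene, an alternative added after seeing the data, rivenprost against vehicle gave -3.53 and no longer passed (adjusted p = 0.772). The call of Hspa1a alone also ended without vehicle replicate 3 or 4, without any one of the rivenprost libraries, without a term for sex (adjusted p = 0.0882) and when only rivenprost and vehicle entered the model (0.155).

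**Figure D2:**
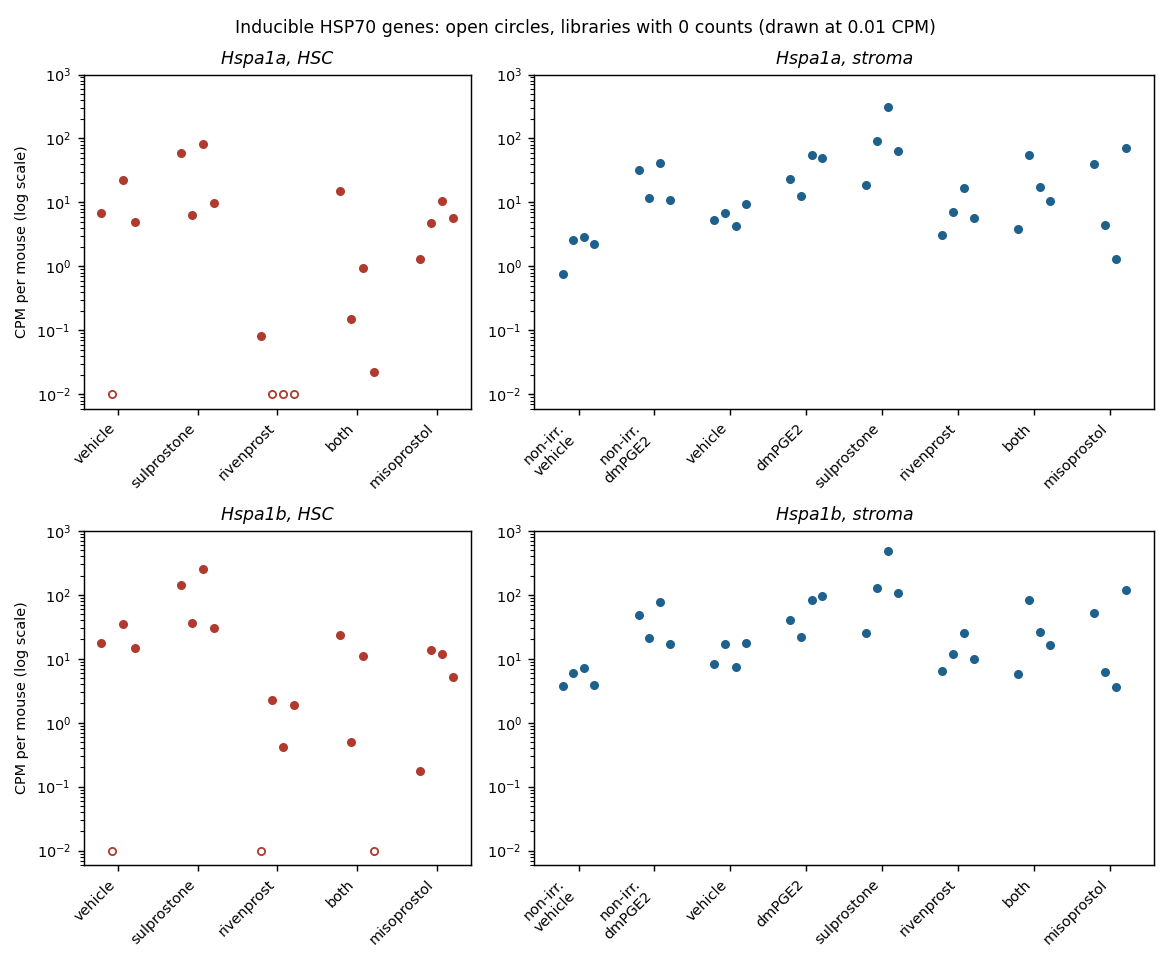
CPM of Hspa1a (top) and Hspa1b (bottom) in each mouse on a log axis, HSC groups on the left and stroma groups on the right, 4 points per group; open circles are libraries with 0 counts, drawn at 0.01. Rivenprost HSC lie at or under 2.25 CPM for both genes, and sulprostone HSC at or above 6.46.

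Dnajb1 (chromosome 8, 83608175 to 83612653), the J-domain partner of inducible HSP70, fell in HSC after both agonists. Its CPM were 284, 347, 426 and 401 after vehicle and 243, 179, 224 and 199 after both agonists, so the groups did not overlap. The log2 fold change was -0.80 (SE 0.14, adjusted p = 0.00645 by edgeR), the 1 member called of 40, where 0.545% of all genes were called and 0.14% were lower. Between mice of the same run of consecutive mouse numbers, which hold 1 mouse per group, the differences on the log2 CPM scale were -0.22, -0.96, -0.93 and -1.01. Leaving out any one library of the 2 groups kept the call (adjusted p up to 0.0436), which ended when only these groups entered the model (-0.78, adjusted p = 0.148). After rivenprost Dnajb1 stood at 281, 247, 247 and 212 CPM, also below every vehicle library, with -0.57 (SE 0.14, adjusted p = 0.107). After misoprostol it was at 289, 288, 258 and 242 CPM (-0.44, SE 0.14, adjusted p = 0.457) and after sulprostone at 391, 372, 498 and 349 CPM (0.13, SE 0.14).

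Chordc1 (chromosome 9, 18292267 to 18314000), an HSP90 co-chaperone with zinc-binding CHORD domains, did not pass against vehicle in any HSC group. Vehicle HSC held 211, 153, 154 and 136.9 CPM, and rivenprost HSC 111.1, 113.3, 106.1 and 120.4, all below vehicle (-0.53, SE 0.18, adjusted p = 0.424). Misoprostol HSC held 140.97, 90.9, 91.99 and 121.7 CPM (-0.55, SE 0.18, adjusted p = 0.455), and sulprostone HSC 229, 179, 308 and 244 (0.55, SE 0.18, adjusted p = 1).

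Hsph1, Hspa8, Hsp90aa1 and Hspa5 overlapped the vehicle mice in every HSC group and passed in no HSC comparison with vehicle. Hsph1, the inducible HSP110 exchange factor, stood at 126.5, 14.03, 83 and 73.2 CPM after vehicle and at 108.5, 72.99, 227 and 111.8 after sulprostone (0.84, SE 0.41). Hspa8 was at 3683, 1906, 2915 and 3427 CPM after vehicle and at 2244, 2102, 2593 and 2745 after rivenprost (-0.29, SE 0.19). Hsp90aa1 spanned 535 to 860 CPM over vehicle and 494 to 667 over rivenprost libraries. Hspa5 spanned 667 to 1099 CPM over vehicle and 753 to 1257 over rivenprost libraries.

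**Figure D3:**
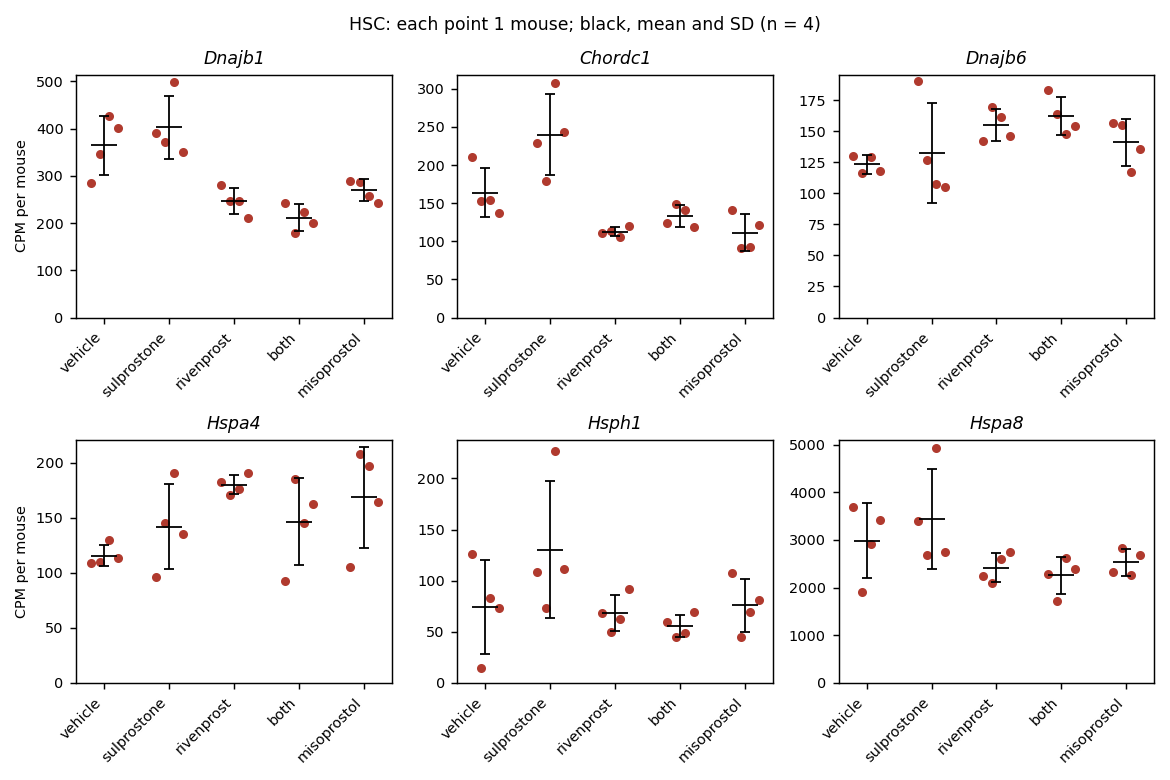
CPM of 6 members in each HSC library by treatment, 4 mice per group, with the mean and SD in black. Dnajb1 after both agonists lies between 179 and 243 CPM, below all vehicle libraries, and Chordc1 after sulprostone lies between 179 and 308 CPM, above all rivenprost libraries.

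Over the whole list in HSC, edgeR called 2 of the 160 combinations of member and treatment against vehicle, and 18 had an unadjusted p under 0.05. These 18 were 3 members after sulprostone and 5 after each other treatment. Of all 13566 genes, 611 had such a p after sulprostone, 868 after rivenprost, 944 after both agonists and 894 after misoprostol. Sulprostone and misoprostol gave 0 called members, where 0.0147% and 0.251% of all genes were called, with 3 and 5 members at an unadjusted p under 0.05. DESeq2 gave 0 for both treatments as well. The median log2 fold change of the 40 members was 0.14 after sulprostone (30 higher and 10 lower), -0.20 after rivenprost (12 and 28), -0.21 after both agonists (12 and 28) and -0.10 after misoprostol (16 and 24). The medians over all genes were 0.01, 0.00, -0.00 and -0.00. Without sulprostone replicate 1 the sulprostone median was 0.17 (29 higher), and without that library, vehicle replicate 2 and misoprostol replicate 2 it was 0.08 (30 higher). These 4 comparisons share the same vehicle libraries. By role, all 7 HSP90 co-chaperones were lower after rivenprost, from -0.77 to -0.06, with 0 of 7 called. Of the 9 J-domain members 5 were higher and 4 lower after rivenprost, and 2 and 7 after both agonists. The 6 members of the endoplasmic reticulum were 5 higher and 1 lower after rivenprost (median 0.12), and all lower after both agonists (median -0.16, lowest Hspa13 at -0.66), with 0 called. Groups that did not overlap vehicle were found after rivenprost for 5 members below (Ahsa2, Chordc1, Dnajb1, Hspb8 and Hspd1), where 2.34% of all genes were below, and 2 above (Dnajb6 and Hspa4), where 3.42% were above. After both agonists 2 members were below (2.15% of all genes) and 1 above (2.42%), after misoprostol 1 below (1.34%), and after sulprostone 1 above (1.02%).

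Compounds were then compared directly in HSC in 6 pairs, with p-values adjusted over all genes of a pair. Rivenprost HSC held less of 3 members than sulprostone HSC, where 0.332% of all genes were called and 0.0369% were lower. Chordc1 differed by -1.08 (SE 0.18, 95% interval -1.45 to -0.71), Dnajb1 by -0.70 (SE 0.14, adjusted p = 0.0319) and Hspa1a by a fitted -10.64, with 4 against 5463 counts over the groups (adjusted p = 0.0137). The call of Hspa1a ended with the counts of Hspa1a and Hspa1b summed (-6.01, adjusted p = 0.375) and without any one rivenprost library, and that of Dnajb1 ended without any one library of either group (-0.74, adjusted p = 0.0562 without sulprostone replicate 1). Within the 4 runs of mouse numbers the difference in Chordc1 lay between -1.54 and -0.66, and its call held whichever single library was omitted. Without 3 HSC libraries that an earlier analysis of these data had set apart (sulprostone replicate 1, vehicle replicate 2 and misoprostol replicate 2), Chordc1 and Hspa1a stayed called (adjusted p = 0.0129 and 0.00832) and Dnajb1 did not (-0.74, adjusted p = 0.0607). Misoprostol HSC also held less Chordc1 than sulprostone HSC (-1.10, SE 0.18, adjusted p = 0.0222), where 0.0369% of all genes were called and 0.00737% were lower. This call ended without those 3 libraries (adjusted p = 0.141), without sulprostone replicate 3 or 4 and without misoprostol replicate 2 or 3. When only the compared groups entered the model, this call and that of Dnajb1 between rivenprost and sulprostone ended. The other 3 member calls of the HSC pairs held. Both agonists left less Dnajb1 than sulprostone (95% interval -1.23 to -0.63), where 0.243% of all genes were called and 0.0442% were lower. It stayed called without sulprostone replicate 1 (-0.96, adjusted p = 0.00662) and without the 3 libraries (adjusted p = 0.00924). Dnaja1, another J-domain partner of HSP70, did not pass, at -0.92 (SE 0.23, adjusted p = 0.121) for rivenprost and -0.96 (SE 0.23, adjusted p = 0.0945) for both agonists against sulprostone, nor without sulprostone replicate 1 (adjusted p = 0.194 and 0.161). In the rivenprost and sulprostone pair 8 members did not overlap, all lower after rivenprost, where 2.38% of all genes were. Without sulprostone replicate 1 there were 8 lower (4.26% of all genes) and 1 higher, Dnajb6, where 619 of all 13566 genes were higher. Against sulprostone, 15 members had an unadjusted p under 0.05 for rivenprost, 13 for both agonists and 10 for misoprostol. Of all 13566 genes, 825, 864 and 832 did. The member medians were -0.33, -0.30 and -0.28 (31, 34 and 30 of 40 lower), against -0.01, -0.02 and -0.02 over all genes. Without sulprostone replicate 1 the member medians were -0.30, -0.25 and -0.26. These pairs share the sulprostone libraries. Between both agonists and rivenprost, misoprostol and rivenprost, and misoprostol and both agonists, 0 members were called by edgeR. At an unadjusted p under 0.05 were 1, 3 and 1 members, beside 372, 443 and 519 of all 13566 genes. DESeq2 called Hspa1a in the first and the second pair (0.464% and 0.568% of all genes). The departure of both agonists from the sum of the single effects on the log scale gave 0 called members, and DESeq2 called 0. At an unadjusted p under 0.05 was 1 member, Hspa1a, beside 497 of all 13566 genes.

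In stroma, irradiation was read from vehicle mice first. None of the 40 members was called, where 0.771% of all genes were, and DESeq2 called 0. None had an unadjusted p under 0.05, where 1394 of all 15168 genes did. Hspa1a stood at 0.767, 2.54, 2.91 and 2.24 CPM without irradiation and at 5.297, 6.74, 4.34 and 9.54 with it, so every irradiated library was above every non-irradiated one (1.72, SE 0.93, adjusted p = 0.611). Hspa1b, at 3.82, 6.06, 7.195 and 3.92 against 8.29, 17.01, 7.53 and 17.4 CPM, did not overlap either (1.33, SE 0.88, adjusted p = 0.715). These were the 2 members above, where 3.11% of all genes were. The median over members was 0.07 (27 higher and 13 lower) against -0.01 over all genes. All 3 small heat shock proteins were higher with irradiation, by 0.27 to 1.51, and all 6 members of the endoplasmic reticulum lower, between -0.28 and -0.04, without a call. Between irradiated and non-irradiated dmPGE2 mice 0 members were called (0.0461% of all genes), 0 had an unadjusted p under 0.05 (889 of all 15168 genes) and DESeq2 called 0. Replicate 4 of non-irradiated vehicle and of non-irradiated dmPGE2 carry mouse numbers 1021 and 1022, outside the 715 to 793 of the irradiated stroma mice. Their osteoblast markers summed to 27860 and 18150 CPM, the highest in stroma. The part of these 2 libraries in the directions given here was not tested.

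After dmPGE2 without irradiation 3 members changed, Dnajb6 and Hspa1a rising and Chordc1 falling. Dnajb6 (chromosome 5, 29735898 to 29786478) stood at 104.3, 99.6, 84.7 and 86.8 CPM after vehicle and at 126.97, 120.3, 124.8 and 124.8 after dmPGE2. The groups did not overlap, and the log2 fold change was 0.40 (SE 0.08, adjusted p = 0.00404 by edgeR). Chordc1 stood at 132.1, 147, 115.2 and 85.3 CPM after vehicle and at 69.6, 104.4, 75.7 and 66.5 after dmPGE2, overlapping through vehicle replicate 4 (-0.60, SE 0.17, adjusted p = 0.0390). Hspa1a rose from between 0.767 and 2.91 CPM to 31.6, 11.9, 41.1 and 10.8 CPM, with no overlap (3.53, SE 0.98, adjusted p = 0.0393). Hspa1b, at 48.1, 21.1, 78.3 and 16.9 CPM after dmPGE2, also did not overlap vehicle but did not pass (2.98, SE 0.92, adjusted p = 0.0694). The background of calls was 3.76% of all genes, 1.77% higher and 1.99% lower. Groups did not overlap for 4 members above vehicle (3.42% of all genes) and 1 below (3.94%). Dnajb6 kept its call whichever library was omitted, whereas the calls of Chordc1 and Hspa1a each ended for 6 of the 8 libraries. With Hspa1a and Hspa1b summed, the call ended as well (3.16, adjusted p = 0.0551), and when only these groups entered the model those of Dnajb6 (adjusted p = 0.337) and Chordc1 (0.306) did. That model called 2 members, Hspa1a and Hspa1b, where 0.547% of all genes were called. Osteoblast markers were highest in replicate 4 of both groups, as given above. Without vehicle replicate 4, Dnajb6 (0.37, adjusted p = 0.0182) and Chordc1 (-0.73, adjusted p = 0.0151) stayed called and Hspa1a did not (3.70, adjusted p = 0.0876). Without dmPGE2 replicate 4, Dnajb6 (0.40, adjusted p = 0.00782) and Hspa1a (3.74, adjusted p = 0.0365) stayed called and Chordc1 did not (-0.54, adjusted p = 0.0758).

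The same comparison was read within the 3 runs of mouse numbers, 715 to 730, 780 to 793 and 1021 to 1022, which the labels do not call batches. Dnajb6 differed by 0.28, 0.56 and 0.52 log2 units, and Hspa1a by 3.76, 3.80 and 2.25. Chordc1 differed by -0.71, -0.61 and -0.36. With a term for these runs beside sex, 8 members were called, where 6.78% of all genes were. They were Chordc1, Dnajb6 and Hspa1a with Dnaja1, Hsf2, Hspa2, Hspa8 and Hsph1. Immediate early genes (12 of 12 measured) summed to 524 to 1971 CPM after vehicle and 2132 to 3326 CPM after dmPGE2 in these mice, and their part was not tested.

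Hsph1, which did not pass without the run term, stood at 373, 567, 368 and 204 CPM after vehicle and at 178, 348, 206 and 124.8 after dmPGE2 (-0.83, SE 0.24, adjusted p = 0.0548). Hspa8 was at 3709, 4396, 3068 and 2202 CPM against 2911, 2849, 2798 and 1729 (-0.38, SE 0.18, adjusted p = 0.275). Hsp90aa1 spanned 1261 to 2830 CPM after vehicle and 1305 to 2227 after dmPGE2 (-0.11, SE 0.18). Of the 40 members 17 were higher and 23 lower, with a median of -0.10 against 0.01 over all genes. By role, the 3 HSP110 members were all lower (-0.83 to -0.10), 6 of 7 HSP90 co-chaperones were lower, and 6 of 9 J-domain members were higher.

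With irradiation, dmPGE2 gave 0 called members, where 1.98% of all genes were called, and 1 by DESeq2 (Dnajb6, 4.42% of all genes). At an unadjusted p under 0.05 were 7 of 40 members and 2489 of all 15168 genes, near the same share. Hspa1a stood at 23.2, 12.7, 55.9 and 48.9 CPM, above all irradiated vehicle libraries (2.41, SE 0.92, adjusted p = 0.183), and Hspa1b at 40.5, 21.6, 82.8 and 95.7 CPM, above them too (2.29, SE 0.89, adjusted p = 0.192). Dnajb6 stood at 124.4, 126.1, 124.6 and 106.3 CPM against 92.3, 101.4, 103.2 and 98.04, with no overlap (0.29, SE 0.08, adjusted p = 0.0661). Chordc1 was at 74.9, 101.2, 81.9 and 78.98 CPM against 102.3, 132.4, 103.1 and 126.6, again with no overlap (-0.47, SE 0.17, adjusted p = 0.153). In all, 4 of 40 members lay above every irradiated vehicle library, where 9.41% of all genes did, and 4 below, where 4.98% did. The difference between the dmPGE2 effects with and without irradiation was itself tested. It gave 0 called members (0.0264% of all genes), 0 with an unadjusted p under 0.05 (379 of all 15168 genes) and 0 by DESeq2. The values were -0.12 (SE 0.12) for Dnajb6, 0.14 (SE 0.24) for Chordc1 and -1.12 (SE 1.26) for Hspa1a. With the run term 3 members passed in irradiated mice (Chordc1, Dnaja1 and Dnajb6), where 5.24% of all genes did.

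**Figure D4:**
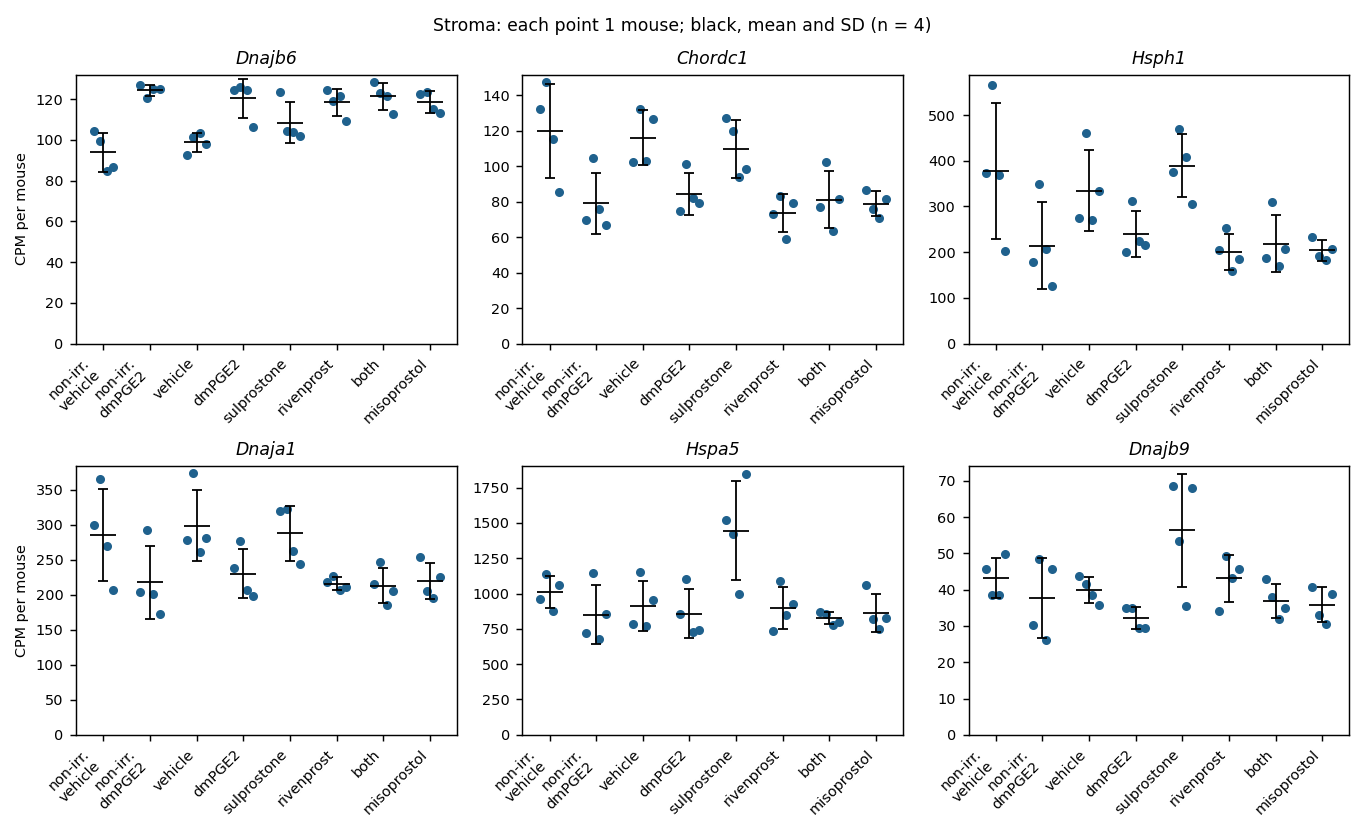
CPM of 6 members in each stroma library by treatment, 4 mice per group, with the mean and SD in black. Dnajb6 after non-irradiated dmPGE2 lies between 120.3 and 126.97 CPM, above all non-irradiated vehicle libraries, and Hspa5 after sulprostone reaches 1843 CPM.

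The agonists were then read against irradiated vehicle in stroma. Both agonists together gave 1 called member of 40, where 3.09% of all genes were called and 1.5% were higher. Dnajb6 rose to 128.5, 122.9, 121.5 and 112.5 CPM (0.30, SE 0.08, adjusted p = 0.0427), above every vehicle library. The difference was 0.38 and 0.22 log2 units within the runs 715 to 730 and 780 to 793. This call ended with any one library of either group left out, with RLE factors (0.25, adjusted p = 0.0671) and when only these groups entered the model (0.26, adjusted p = 0.122). Rivenprost gave 0 called members (1.13% of all genes) and 8 at an unadjusted p under 0.05 (1511 of all 15168 genes). DESeq2 called 4 members (Ahsa2, Bag3, Chordc1 and Dnajb6), where it called 2.29% of all genes. Dnajb6 after rivenprost, at 124.3, 118.9, 121.6 and 109.02 CPM (0.26, SE 0.08, adjusted p = 0.139), and after misoprostol, at 122.5, 123.7, 114.98 and 113.3 CPM (0.26, SE 0.08, adjusted p = 0.134), lay above every vehicle library.

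Chordc1 after rivenprost stood at 72.99, 83.4, 59.05 and 79.2 CPM, below every vehicle library (-0.65, SE 0.17, adjusted p = 0.0501). It passed with RLE factors, with genes under a mean of 1 CPM left out, without a term for sex and with the run term. It did not pass when only rivenprost and vehicle entered the model, where 0.0132% of all genes did. After misoprostol Chordc1 was at 86.8, 76.02, 70.7 and 81.7 CPM (-0.56, SE 0.17, adjusted p = 0.122), and after both agonists at 76.9, 102.4, 63.6 and 81.6 (-0.52, SE 0.17, adjusted p = 0.0896). After sulprostone it was at 127.4, 119.7, 93.8 and 98.1 CPM, within the vehicle range or just under it (-0.08, SE 0.17). Hsph1 stood at 274, 461, 271 and 334 CPM after vehicle, at 205, 252, 159 and 185 after rivenprost (-0.73, SE 0.24, adjusted p = 0.191) and at 375, 469, 409 and 305 after sulprostone (0.21, SE 0.24).

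Misoprostol gave 0 called members (0.916% of all genes), with 11 at an unadjusted p under 0.05 (1669 of all 15168 genes) and 2 by DESeq2 (2.49% of all genes). Sulprostone gave 0 (0.105%), with 5 at an unadjusted p under 0.05 (596 of all 15168 genes) and 2 by DESeq2 (0.251% of all genes), Hspa1a and Hspa1b. Hspa1a after sulprostone reached 18.7, 90.9, 311 and 64.2 CPM, above every vehicle library (4.01, SE 1.00, adjusted p = 0.236 by edgeR), and Hspa1b 25.03, 127.6, 482 and 106.98 CPM (3.71, SE 0.95, adjusted p = 0.290). After rivenprost Hspa1a was at 3.14, 7.11, 16.6 and 5.799 CPM (0.18, SE 0.90), after both agonists at 3.89, 55.6, 17.6 and 10.4 (1.54, SE 0.92), and after misoprostol at 39.4, 4.44, 1.31 and 72.1 (2.35, SE 0.93, adjusted p = 0.301), each overlapping vehicle. Among the 31 stroma libraries with both genes over 1 CPM, Hspa1b held 1.33 to 2.73 times the CPM of Hspa1a. Bag3, the exchange factor that links HSP70 to autophagy, was higher by 1.06 after rivenprost, 0.82 after misoprostol and 0.72 after both agonists (37.6 to 148, 49.2 to 96.1 and 36.9 to 127.1 CPM against 31.5 to 46.7) and passed in none of them by edgeR, though DESeq2 called it after rivenprost.

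With the run term the counts of called members were 5 after both agonists (7.41% of all genes), 5 after rivenprost (2.18%), 4 after misoprostol (1.91%) and 0 after sulprostone (0.0857%). Those 5 were Ahsa2, Chordc1, Dnaja1, Dnajb6 and Hsph1 after rivenprost, and these comparisons share their vehicle libraries. Without the run term, members that did not overlap vehicle after rivenprost were 5 below (Ahsa2, Chordc1, Dnaja1, Hspa4l and Hsph1; 2.61% of all genes) and 1 above (Dnajb6; 2.93%). After misoprostol 5 were below (3.34%) and 2 above (3.63%), after both agonists 3 below (5.7%) and 1 above (9.16%), and after sulprostone 1 below (0.771%) and 2 above (1.6%). The medians over the 40 members were 0.01 after sulprostone, -0.01 after rivenprost, -0.00 after both agonists and -0.03 after misoprostol, against 0.00, 0.04, 0.03 and 0.03 over all genes.

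Hspa5 and Dnajb9, 2 of the 6 members of the endoplasmic reticulum, differed between compounds in stroma. Hspa5 (chromosome 2, 34772090 to 34776529) stood at 1523, 1418, 997 and 1843 CPM after sulprostone, at 857, 1103, 729 and 745 after irradiated dmPGE2 and at 869, 857, 777 and 800 after both agonists. Every sulprostone library lay above those of both agonists, while 1 dmPGE2 library overlapped. Both agonists lay below sulprostone without overlap in 3 members, where 5.29% of all genes did. Sulprostone exceeded dmPGE2 by 0.75 (SE 0.19, adjusted p = 0.0392), and both agonists against sulprostone gave -0.81 (SE 0.19, adjusted p = 0.0240). Both calls ended without sulprostone replicate 1, 2 or 4. The first also ended without dmPGE2 replicate 1, 3 or 4, and the second without any one library of both agonists. Within the runs 715 to 730 and 780 to 793 the first difference was 0.60 and 0.88 and the second -0.77 and -0.78. Against vehicle, at 783, 1150, 772 and 953 CPM, sulprostone gave 0.66 (SE 0.19, adjusted p = 0.468).

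Dnajb9, a J-domain partner of Hspa5 in that compartment, stood at 68.5, 53.3, 35.6 and 67.9 CPM after sulprostone and at 34.8, 34.9, 29.5 and 29.5 after dmPGE2, with no overlap (0.79, SE 0.18, adjusted p = 0.0240). This call ended without sulprostone replicate 1, 2 or 4 and without dmPGE2 replicate 1, 3 or 4. Sulprostone lay above dmPGE2 without overlap in 3 members, where 5.16% of all genes did. All 6 members of the endoplasmic reticulum were higher after sulprostone than after vehicle, from 0.15 to 0.66, with 0 called. In the 10 compound pairs of stroma these 3 calls were all that edgeR made among members, where 1.28% of all genes were called between sulprostone and dmPGE2 and 1.67% between both agonists and sulprostone. Rivenprost and misoprostol against sulprostone gave 0 called members (0.033% and 0.0132% of all genes), and 4 and 2 by DESeq2 (0.936% and 0.574% of all genes). In each, 9 members had an unadjusted p under 0.05, beside 1294 and 1253 of all 15168 genes. Sulprostone against dmPGE2 had 11 such members and both agonists against sulprostone 14, beside 2856 and 2714 of all 15168 genes. When only the compared groups entered the model, all 3 calls ended, with adjusted p = 0.159 and 0.0978 for Hspa5 and 0.131 for Dnajb9. Over the 10 pairs edgeR called 0.3% of all tests of a gene in a pair. With the run term 19 member calls were made (1.34% of all tests), and by DESeq2 14 (1.02%). The departure of both agonists from additivity gave 0 called members in stroma, 6 at an unadjusted p under 0.05 (655 of all 15168 genes) and 0 by DESeq2. Hspa5 was at -0.78 (SE 0.26, adjusted p = 0.941) and Dnajb9 at -0.72 (SE 0.25, adjusted p = 0.941).

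**Figure D5:**
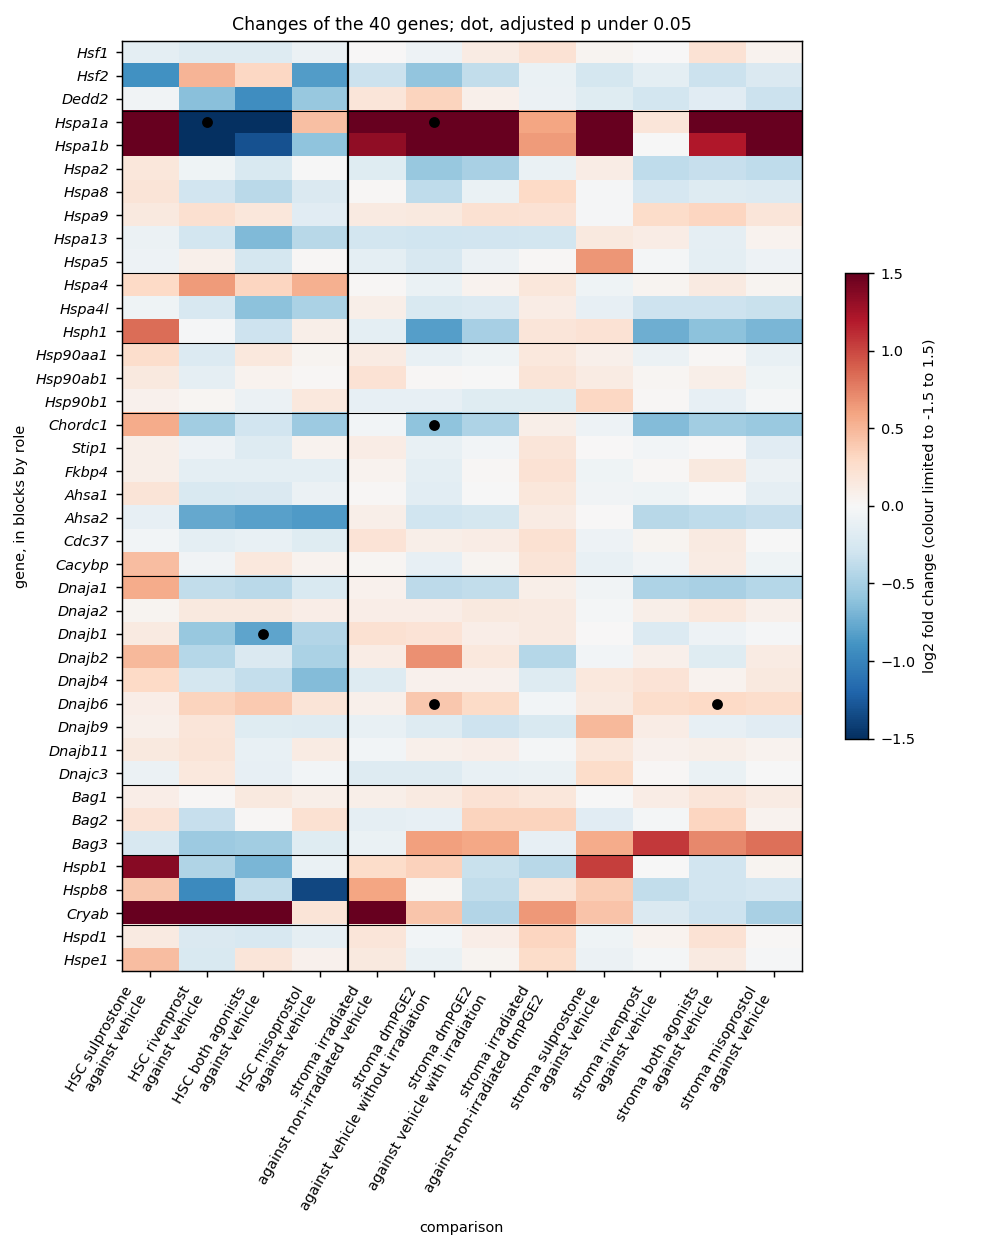
Log2 fold change of each of the 40 genes (rows, in blocks by role) in the 4 HSC and 8 stroma comparisons with a control (columns), with the colour limited to 1.5 either way; dots mark an adjusted p under 0.05 by edgeR. There are 6 dots in 480 cells, 2 of them in HSC columns and 4 in stroma columns.

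A further 90 genes of protein folding and the unfolded protein response, listed as neighbours of these pathways, were read in the same fits, 85 of them measured in HSC and 89 in stroma. Each count is set beside the share of all genes called in that comparison. In HSC 1 of 85 fell after both agonists (0.545% of all genes called) and 0 passed after the other treatments. This was Ier5, an immediate early gene known to act on HSF1 in cell lines (-1.49, SE 0.23, adjusted p = 0.00197). In stroma Ier5 rose with irradiation (1.26, SE 0.20, adjusted p = 0.000436), the 1 of 89 that passed (0.771% of all genes). Without irradiation dmPGE2 raised 1 of 89, the J-domain gene Dnajc8 (0.42, SE 0.12, adjusted p = 0.0408), where 1.77% of all genes were higher, a larger share than 1 of 89. Rivenprost raised 1, Unc45a, a co-chaperone of HSP90 for myosin (0.95, SE 0.19, adjusted p = 0.00896), where 1.13% of all genes were called, near the same share. Both agonists raised 2, where 1.5% of all genes were higher, Unc45a (0.79, SE 0.19, adjusted p = 0.0176) and Dnajb12 (0.38, SE 0.10, adjusted p = 0.0348). The stress factor gene Ddit3, which the unfolded protein response induces, was lower after both agonists than after sulprostone (-0.77, SE 0.15, adjusted p = 0.0107), where 1.67% of all genes were called.

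Several members are uncertain by sequence, because they share stretches with other transcripts or overlap a gene on the opposite strand. Besides Hspa1a and Hspa1b, the share of 100-base windows found in another gene's transcript (GENCODE M21) was 44% for Hspb1, 38% for Hsp90aa1, 28.2% for Hspa8, 23.4% for Hspd1, 14.6% for Dnajb6, 10% for Hspe1 and 9.21% for Dnaja1. Among other overlaps, exons overlap a gene on the opposite strand over 564 bases in Hspa1a (Gm20481), 2137 in Ahsa2 (Usp34) and 608 in Dnaja1 (Smu1). The overlap is 415 bases in Hsp90b1 (1810014B01Rik), 252 in Cryab (Hspb2) and 249 in Dnajb6 (Gm5129). Reads of shared windows may be split or lost between genes. The strand setting of the counting was not given, so how reads of the opposite-strand overlaps were assigned is not known.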

How the data were processed

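Counts per gene were deposited by the authors for 20 HSC and 32 stroma libraries, 1 table for each fraction, from paired reads of 100 bp. Per the submitters' processing notes, the tools were FastQC 0.11.5, STAR 2.5, featureCounts of Subread 1.5.1 and edgeR 3.36.0, with the mouse build mm10. No source used here names the strand setting. A further 52 columns of log2 CPM per library, made by the authors, were not used. Per the labels' protocols, HSC libraries were made from 1 ng of RNA (RIN above 7) with SMART-Seq v4 and stroma libraries with KAPA mRNA HyperPrep (RIN above 8).

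Groups, sexes and mouse numbers came from the labels. The 40 members and all other lists were chosen with earlier results of these data known. Each table was fitted once over all its genes with edgeR 4.0.16 in R 4.3.3 (TMM factors, robust quasi-likelihood test, a term for group and one for sex), and p-values were adjusted over all genes by Benjamini and Hochberg, with a call at an adjusted p under 0.05. No filter removed a gene. SE is the log2 fold change divided by the root of F, and intervals are at 95%. Log2 CPM used a prior count of 2. Named in full were called members and, where a fraction had few calls, Hspa1a, Hspa1b, Hspa5, Hspa8, Hsp90aa1, Hsph1 and Dnajb1; other members are given by role, and Dnaja1, Bag3 and members beside a count of 5 or fewer were named after their values were seen. Alternatives were DESeq2 1.42.0, RLE factors, a minimum mean of 1 CPM, no term for sex, a term for runs of mouse numbers, only the compared groups, each library left out, the 3 HSC libraries left out, and, added after seeing the data, summed counts of Hspa1a and Hspa1b and the overlap of groups without sulprostone replicate 1. The scripts were tested on simulated data. Depth was 27376014 to 49173110 counts in HSC and 38031184 to 73695537 in stroma, and counting intervals cover counting error only.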

Additional observations from a re-analysis of the deposited data

Results flagged for a closer look

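Among 120 groups of 4 libraries examined for a library far from the other 3, 8 were marked by Dixon's criterion for 4 values (gap over range), where chance alone marks about 1 in 20. In HSC both concerned Hspa1a. Rivenprost replicate 1 stood at 0.0810 CPM while the other 3 libraries were at 0, which is 4 counts. After both agonists replicate 1 stood at 14.9 CPM and the others between 0.0226 and 0.961.

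In stroma, replicate 4 of non-irradiated dmPGE2 was low in 2 abundant chaperones, Hspa8 at 1729 CPM (others 2798 to 2911) and Hsp90aa1 at 1305 CPM (others 2095 to 2227). That library also held osteoblast markers at 18150 CPM in sum, and their part in these levels was not tested. Replicate 4 of irradiated dmPGE2 was low in 2 J-domain genes, Dnajb1 at 165 CPM (others 196 to 199) and Dnajb6 at 106.3 CPM (others 124.4 to 126.1). Replicate 1 was high for Hspa8 after misoprostol, at 3387 CPM (others 2751 to 2806), and for Dnajb6 after sulprostone, at 123.5 CPM (others 102.02 to 104.5). The 32 contrasts compared between HSC and stroma covered Hspa1a, Hspa1b, Hspa5, Hspa8, Hsp90aa1, Hsph1, Dnajb1 and Chordc1 under sulprostone, rivenprost, both agonists and misoprostol. In 0 of them did the treated libraries lie wholly above vehicle in 1 fraction and wholly below it in the other.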

How the results depend on the processing

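The counts of called members changed most with DESeq2 and with the term for runs of mouse numbers. Percentages give the share of all genes, or of all tests in the pairs, called by the same setting. DESeq2 called 15 against 5 over the 6 HSC pairs (1% against 0.102%), 14 against 3 over the 10 stroma pairs (1.02% against 0.3%), and 2 against 1 for rivenprost in HSC (1.72% against 0.494%). In stroma it called 7 against 3 for dmPGE2 without irradiation (6.39% against 3.76%) and 1 against 0 with it (4.42% against 1.98%). It called 4 against 1 for both agonists (5.82% against 3.09%), 4 against 0 for rivenprost (2.29% against 1.13%), and 2 against 0 for misoprostol (2.49% against 0.916%) and for sulprostone (0.251% against 0.105%). The run term gave 19 over the stroma pairs (1.34%), 8 and 3 for dmPGE2 without and with irradiation (6.78% and 5.24%), 5 for both agonists (7.41%), 5 for rivenprost (2.18%) and 4 for misoprostol (1.91%). The shares over all genes thus rose with the counts of members. With only the compared groups there were 3 over the HSC pairs (0.07%) and 0 over the stroma pairs (0.00198%). This setting gave 0 for both agonists and for rivenprost in HSC (0.332% and 0.435%) and 0 for both agonists in stroma (1.58%). For dmPGE2 without irradiation it gave 2 (0.547%). Without the 3 HSC libraries that stood apart there were 3 over the HSC pairs (0.117%). Rivenprost in HSC had 0 with Hspa1a and Hspa1b summed (0.479%) and 0 without a term for sex (0.487%). In stroma rivenprost had 1 with summed counts (1.15%), RLE factors (1.09%), the minimum mean CPM (1.3%) or no term for sex (1.09%). Both agonists had 2 with the minimum (3.98%). The causes were not tested. Of the 14 gene calls, DESeq2, the run term and the minimum each kept 14, RLE factors 13, no term for sex 13, summed counts 11 and the compared groups alone 4, and no direction reversed.

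Leaving out 1 library at a time gave 3 to 7 called members over the HSC pairs, 0 to 2 for rivenprost in HSC, 0 to 11 over the stroma pairs, 0 for both agonists in stroma, 0 to 1 for irradiated dmPGE2, 1 to 7 for non-irradiated dmPGE2 and 0 to 1 for rivenprost in stroma. The share of all genes is not given beside these ranges, so they are not read as results about the members. No paired analysis was possible because the labels tie no animals of different groups to each other: replicate numbers follow accession order, and the runs of mouse numbers are not named as batches or litters. Those runs, which hold 1 mouse per group in HSC, were fitted as the run term above. Cryab had 0 counts in 11 and Hspb1 in 5 of the 20 HSC libraries, and whether deeper sequencing would change this was not tested.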
